A study of Mus musculus with 5 samples.

Results

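The regions described here were called as Smarca4 peaks in cells of both sexes with a control hairpin, but in neither sex with a hairpin against Smarcc1, a core subunit of the BAF chromatin remodelling complex. They are the merged regions on the 19 autosomes that held a Smarca4 peak in the female and in the male non-silencing (Nons) list but in neither Smarcc1 knockdown list, with fewer than 20 input reads in every contributing peak. Peaks of the 4 lists were merged where they shared at least 1 bp. Of 71452 merged autosomal regions, 2612 met the rule, which is 3.66% of all. These regions were chosen by the calls in the 4 lists, so their lower knockdown reads are a description of the choice and carry no test.

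Smarca4 binding was profiled by ChIP-seq in mouse embryonic stem cells (mESCs) of a C57/Bl6 background, at day 4 of differentiation, which began with weaning from 2i medium. The 4 groups were female (XX) cells with the Smarcc1.6 hairpin, female cells with the Nons hairpin, male (XY) cells with the Smarcc1.6 hairpin and male cells with the Nons hairpin, and the cells carried fluorescent reporters at the X-linked gene Hprt. Each group held 1 library, and a single input library of chromatin without immunoprecipitation served all of them, so no difference between groups has a replicate check and sex, cell line and library cannot be told apart. The antibody field of the labels names the hairpin, while the title and the study's methods name Smarca4, and ChIP reads do not show how far Smarcc1 itself was reduced.

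Smarca4 is an ATPase that drives the BAF complex, which slides and evicts nucleosomes at promoters and enhancers. Smarcc1 is a scaffold on which the complex is assembled, and embryonic stem cells use a form of BAF that is rich in this subunit. As cells leave pluripotency, the complex keeps some regulatory elements open and helps close others.

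The sequences under the regions were moderately rich in GC and held few CpGs, as did those of all low-input regions. To show this, the central 300 bp of 6 of them are printed from the plus strand of GRCm38 (mm10), namely the first 3 at promoters, the first 2 within genes and the first outside genes by their Nons fold over input whose centre lies in no annotated UTR. Capitals mark each CpG dinucleotide (CG) and each copy of the E-box hexamer CAGCTG, the motif whose share stood furthest above that of all regions.
Esyt3 promoter, chr9:99324976-99325275: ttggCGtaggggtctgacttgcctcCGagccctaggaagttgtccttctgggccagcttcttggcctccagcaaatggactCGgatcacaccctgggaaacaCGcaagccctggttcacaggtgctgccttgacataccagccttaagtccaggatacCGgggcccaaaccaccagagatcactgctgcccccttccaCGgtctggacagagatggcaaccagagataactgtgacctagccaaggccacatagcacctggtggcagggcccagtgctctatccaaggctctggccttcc
Rbfox3 promoter, chr11:118508476-118508775: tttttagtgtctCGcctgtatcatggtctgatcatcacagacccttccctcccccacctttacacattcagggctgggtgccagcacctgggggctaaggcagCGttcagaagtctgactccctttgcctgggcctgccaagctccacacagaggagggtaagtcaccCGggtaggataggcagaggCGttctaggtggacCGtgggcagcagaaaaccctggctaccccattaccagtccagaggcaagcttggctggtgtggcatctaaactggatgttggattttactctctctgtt
Ap2a1 promoter, chr7:44902201-44902500: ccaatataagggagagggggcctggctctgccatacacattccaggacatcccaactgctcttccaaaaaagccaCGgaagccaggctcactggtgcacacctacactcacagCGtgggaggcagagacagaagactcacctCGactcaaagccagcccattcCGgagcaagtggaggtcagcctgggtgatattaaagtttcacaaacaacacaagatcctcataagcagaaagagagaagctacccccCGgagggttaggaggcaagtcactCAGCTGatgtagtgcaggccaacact
Ptbp1 intron, chr10:79857376-79857675: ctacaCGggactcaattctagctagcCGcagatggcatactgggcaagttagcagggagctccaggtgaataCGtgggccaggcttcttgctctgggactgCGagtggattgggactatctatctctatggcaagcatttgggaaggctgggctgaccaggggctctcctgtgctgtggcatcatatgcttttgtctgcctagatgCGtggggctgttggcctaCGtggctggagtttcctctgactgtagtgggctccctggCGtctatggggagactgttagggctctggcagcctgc
Trpc7 intron, chr13:56790076-56790375: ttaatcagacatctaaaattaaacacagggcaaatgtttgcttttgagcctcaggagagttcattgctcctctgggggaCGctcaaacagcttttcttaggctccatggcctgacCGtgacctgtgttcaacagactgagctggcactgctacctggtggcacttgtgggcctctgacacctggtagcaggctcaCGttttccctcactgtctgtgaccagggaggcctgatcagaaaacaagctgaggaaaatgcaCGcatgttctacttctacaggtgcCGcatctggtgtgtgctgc
Intergenic region nearest to Vmn1r3, chr4:3180526-3180825: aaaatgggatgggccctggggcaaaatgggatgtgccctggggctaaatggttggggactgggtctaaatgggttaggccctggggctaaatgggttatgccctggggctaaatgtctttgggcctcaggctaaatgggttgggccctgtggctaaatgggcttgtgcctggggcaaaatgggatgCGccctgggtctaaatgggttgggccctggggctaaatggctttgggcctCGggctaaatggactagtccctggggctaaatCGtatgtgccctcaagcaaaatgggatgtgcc
The 300 bp at Esyt3 held 58.7% GC with 6 CpGs, those at Rbfox3 held 55.3% with 5, those at Ap2a1 held 53.3% with 5, those at Ptbp1 held 57.0% with 7, those at Trpc7 held 51.3% with 5, and those nearest to Vmn1r3 held 56.3% with 3. Among the 6, CAGCTG occurred at Ap2a1 only. At Rbfox3 the start site nearby is of a transcript that begins inside the gene.

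Depth limits what the calls can show. The deposited values show how deep each ChIP library was relative to the input, at 5.99% for female Smarcc1 knockdown, 11.6% for female Nons, 14.2% for male Smarcc1 knockdown and 21.8% for male Nons. The smallest peaks of the lists held 5, 6, 7 and 2 reads of their own library in the same order. A read stands for 16.7 scaled reads in female Smarcc1 knockdown, 8.60 in female Nons, 7.03 in male Smarcc1 knockdown and 4.59 in male Nons. Ratios between libraries, and statements of which library was higher, used reads scaled by these depths. Reads below are unscaled unless said otherwise.

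In the window of the Nons peak of the same sex, the 2612 regions held a median of 1 read in female Smarcc1 knockdown (0 to 6), against 8 reads in female Nons (6 to 28). They held a median of 3 reads in male Smarcc1 knockdown (0 to 16), against 10 reads in male Nons (3 to 42). The highest input value of their peaks had a median of 4 reads (0 to 19), and 62 regions had none. These ranges are of unscaled reads. A knockdown read stands for more scaled reads than a Nons read of the same sex, so the unscaled ranges understate the overlap. The lowest female Nons value, 6 reads, is also the smallest peak of its list. No read was found in female Smarcc1 knockdown at 1115 regions (42.7%), nor in male Smarcc1 knockdown at 212 (8.12%). At these depths, 0 reads cannot tell a lack of binding from a lack of reads.

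**Figure D1:**
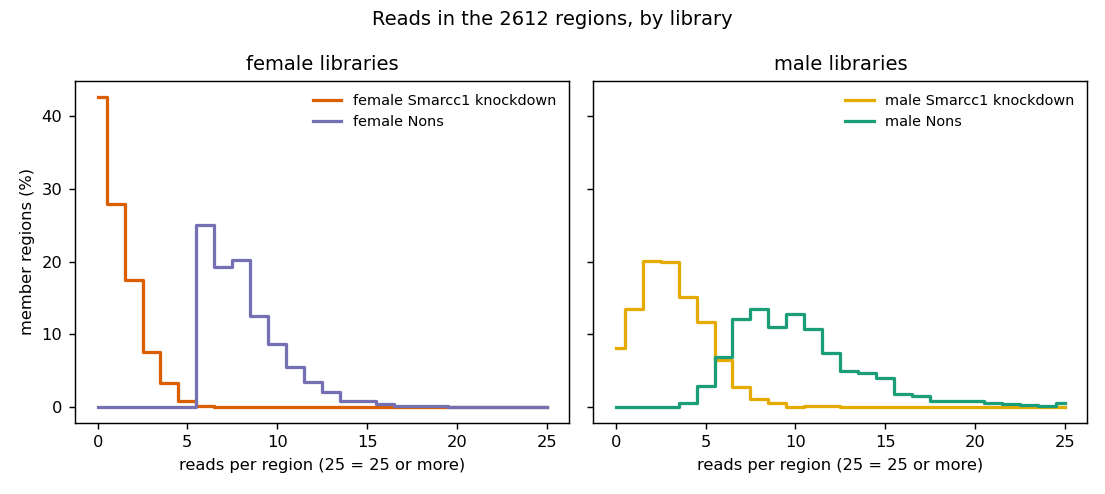
Share of the 2612 regions (%) by unscaled reads per region in the window of the Nons peak of the same sex, for the female libraries (left) and the male libraries (right). Female Smarcc1 knockdown holds 0 to 6 reads and female Nons 6 or more, and the male libraries share the range of 3 to 16 reads. Libraries differ in depth, so positions along this axis do not compare scaled levels.

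Summed over the regions and scaled to depth, reads in Smarcc1 knockdown were 0.245 times those of Nons in female cells (0.235 to 0.255) and 0.463 times in male cells (0.451 to 0.474). Here and below, intervals are 95% intervals for counting error. Each Nons library had chosen its own window. In the window chosen by the Nons peak of the other sex the ratios were 0.290 (0.278 to 0.302) and 0.538 (0.525 to 0.552), closer to 1 in both sexes. Scaled reads were at most 0.5 times those of Nons at 2163 regions (82.8%) in female cells, where 57.5% of all 71191 low-input regions met the same limit, and at 1437 (55.02%) in male cells, where 35.2% of all did. The rule used both contrasts, so nothing is read from these counts. Over all low-input regions, the summed ratios were 0.507 in female and 0.890 in male cells. In regions called only in female Nons the female ratio was 0.210, and in regions called only in male Nons the male ratio was 0.438. Both were lower than in the regions described here. In the sex without the Nons call, these groups had ratios of 1.03 (male cells) and 0.688 (female cells).

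Not every region would have been called in a knockdown library even with binding as in Nons. At the depth of the knockdown library of the same sex, a region needed at least 10 reads in female Nons or 11 in male Nons to reach the smallest peak of the knockdown list. That held for 600 regions (22.97%) in female cells, for 1044 (40.0%) in male cells and for 292 (11.2%) in both. In these 292 the ratios of knockdown to Nons were 0.262 (0.238 to 0.289) in female and 0.446 (0.418 to 0.476) in male cells. On the other side of the rule, 26 regions held at least 5 reads in female Smarcc1 knockdown and 132 held at least 7 in male Smarcc1 knockdown without being called there. Scaled reads were below those of Nons at 2427 regions (92.9%) in both sexes. The rule favoured this and no share over all low-input regions stands beside it, so nothing is read from this count.

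A model of sex plus hairpin over all 71411 regions with fewer than 50 input reads called 0 regions for Smarcc1 knockdown over Nons and 0 for female over male (edgeR quasi-likelihood test, Benjamini-Hochberg adjusted p under 0.05). At an unadjusted p under 0.05, 284 and 296 regions passed, and DESeq2 called 0 for each, with 411 and 447 at an unadjusted p under 0.05. The model had 1 residual degree of freedom and a common dispersion of 0.396, so 0 calls do not show that no region differs.

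The female and male Nons peaks of a region lay close together. A single female and a single male peak made up 2548 of the regions (97.5%), their centres lay within 150 bp in 1891 (72.4%), and 378 (14.5%) had the same window. Peak edges fall on a 150 bp grid. Peaks shared a median of 300 bp, and 719 regions rested on an overlap of 150 bp, the smallest found. A further 407 regions called in female Nons alone had a region called in male Nons alone within 150 bp with no shared base. The regions were 300 to 1950 bp wide with a median of 600 bp, against 450 bp over all low-input regions. Scaled reads in female Nons were above those in male Nons at 2306 regions (88.3%), with a median ratio of 1.53 and quartiles of 1.19 and 1.88. Each value stood in its own peak, and a female Nons peak of the smallest size, 6 reads, stands for a higher scaled level than a male Nons peak of the smallest size, 2 reads. The rule used both Nons calls and no share over all low-input regions stands beside this count, so nothing is read from it.

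A limit of 50 input reads in place of 20 gave 2615 regions. Just inside the limit of 20 were an exon of Peak1 with 19 input reads and the promoters of Cacnb3 and Nrn1l with 18 each. Just outside it were the promoters of Naaa with 23 and Hjurp with 24 input reads, and a region nearest to Vmn1r3 with 27.

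Regions lay mostly in and around genes. An intron of a protein-coding gene held 1043 (39.9%), a promoter, here the 1000 bp up- and downstream of any start site, 591 (22.6%), a coding exon 263 (10.1%), a UTR exon 105 (4.02%), a noncoding exon 38, an intron of another gene 47, and 525 (20.1%) were intergenic. Start sites were those of every annotated transcript, so some promoters lie inside genes, as at Rbfox3 and Ube3b. The comparison was with 16895 regions called only in female Nons, 32509 called only in male Nons and 2329 called in both male lists. Position and sequence were not used by the rule, so the differences have intervals, although neighbouring regions are not independent.

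Promoters took a larger share than in regions called only in female Nons, by 5.76 percentage points (4.09 to 7.49), and a smaller share than in regions of both male lists, with a difference of -4.55 points (-6.97 to -2.14). For the central 300 bp these differences were 4.59 points (2.97 to 6.28) and -4.63 points (-6.99 to -2.28). Against regions called only in male Nons the difference was 1.90 points (0.274 to 3.60) for whole regions, which were wider here, but 0.737 points (-0.839 to 2.39) for the central 300 bp, where it was not detectable. Coding exons were above those regions called in a single Nons list, by 3.70 points over female (2.54 to 4.97) and 2.47 over male (1.34 to 3.72), and differed by -0.622 points from regions of both male lists (-2.34 to 1.08). Intergenic regions had a smaller share, with differences of -6.88 points from those only in female Nons (-8.52 to -5.17) and -4.67 points from those only in male Nons (-6.23 to -3.02), and differed by 0.907 points from those of both male lists (-1.32 to 3.12). A location beyond 50 kb from any coding start was found for 12.5%, against 19.8%, 17.4% and 10.4% of the regions only in female Nons, only in male Nons and in both male lists.

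**Figure D2:**
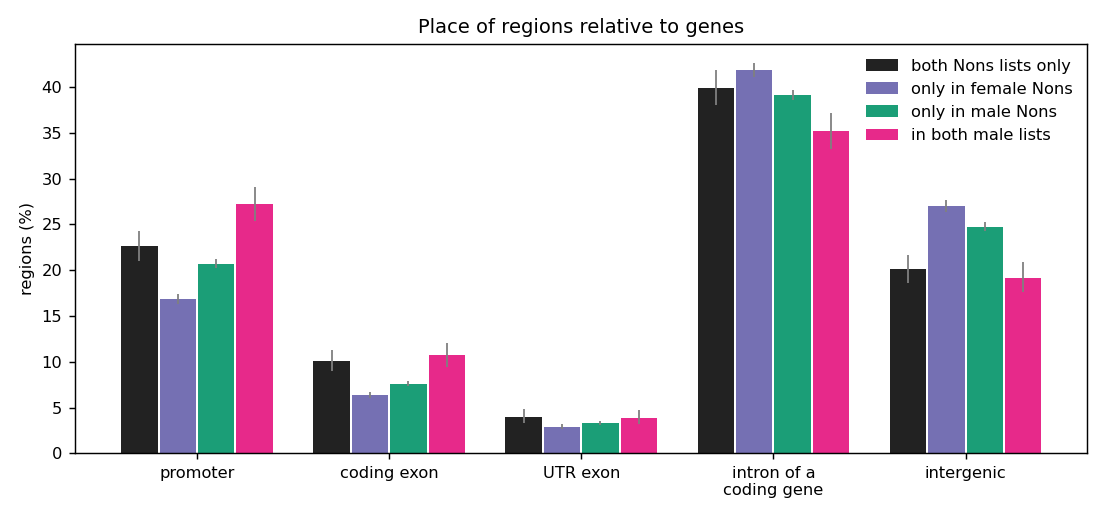
Share of regions (%) by place relative to genes for regions in both Nons lists only (n = 2612), only in female Nons (n = 16895), only in male Nons (n = 32509) and in both male lists (n = 2329). Lines are 95% Clopper-Pearson intervals. Promoters hold 22.6% of the regions in both Nons lists only, between the 16.9% of female Nons and the 27.2% of both male lists.

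Promoter shares moved with read number. Among members with fewer than 8 reads in the male Nons peak, 14.98% of centres lay within 1000 bp of a start site (12.2 to 18.1), against 18.7% of regions only in male Nons with as many reads (17.9 to 19.6). With 14 or more reads the shares were 26.3% (22.2 to 30.6) and 25.6% (24.1 to 27.1). Matched on female Nons reads, the share at 9 to 11 reads was 24.7% (21.6 to 28.1), against 15.7% of regions only in female Nons (14.6 to 16.9). The share was above that of regions called only in female Nons in each of 4 bands of reads, with intervals apart only at 9 to 11 reads. Against regions called only in male Nons it was lower or higher depending on the band. In bands of GC content the intervals overlapped those of regions called only in female Nons in all 4 bands, as in the band of 53 to 56% GC with 17.1% (14.4 to 20.1) against 14.1% (13.2 to 15.1), and at 59% GC or more the share was 30.9% (27.07 to 34.96) against 39.8% of regions only in male Nons (38.5 to 41.1).

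The centres had a median GC content of 56.3% (quartiles 54.0 and 58.3), against 54.3% for regions only in female Nons, 55% for regions only in male Nons, 56.7% for regions in both male lists and 54.7% over all low-input regions. They held a median of 6 CpGs in 300 bp, with an observed over expected ratio of 0.244, against 5 CpGs and a ratio of 0.245 over all low-input regions, and 1.99% of centres were like a CpG island (GC over 55% and observed over expected CpG over 0.65), against 1.04% of regions only in female Nons, 3.10% only in male Nons and 4.29% of both male lists. Coding exons had the highest median GC content (58.3%), promoters had 57.3%, and introns and intergenic regions 55.7% each. Centres without any repeat-masked base made up 41.4%, against 35.1%, 36.1% and 42.8% in the same order of comparison.

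Of 17 motifs searched on both strands, with letters spelt as given, the hexamer CAGCTG, an E-box bound by class II bHLH factors, was in 768 centres (29.4%, interval 27.7 to 31.2), against 25.9% of all 71191 low-input regions. The difference was 3.67 points from regions only in female Nons (1.83 to 5.56) and 3.23 from regions only in male Nons (1.45 to 5.07), but 2.27 from regions in both male lists, where the interval of -0.251 to 4.77 included 0. CAGCTG consists mostly of G and C, and its share rose with GC content in every group. Within the band of 53 to 56% GC it was 29.8% (26.5 to 33.3), against 26.5% of regions only in female Nons (25.4 to 27.7) and 26.6% of regions only in male Nons (25.7 to 27.5). At 59% GC or more it was 32.4% (28.5 to 36.5), against 32.9% (30.7 to 35.1) and 30.5% (29.2 to 31.7). The intervals overlapped those of both groups in every band of GC content. Among members with 14 or more male Nons reads the share was 22.8% (18.98 to 27.05). Regions only in male Nons with as many reads had 26.4% (24.9 to 27.9). In each lower band of male Nons reads the share of members was above that of regions only in male Nons. The share of members was also above that of regions only in female Nons in each band of female Nons reads. The GC box GGGCGG was in 11.4%, against 10.7% of all, and the octamer ATGCAAAT in 0.345%, against 0.600%. The remaining motifs differed by less than 1 percentage point from all regions in the central 300 bp. In the central 600 bp the difference was 5.56 points for CAGCTG, 1.19 for the GC box, -1.38 for the CCAAT box (ACCAAT) and -1.11 for the Sox site (AACAATG).

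**Figure D3:**
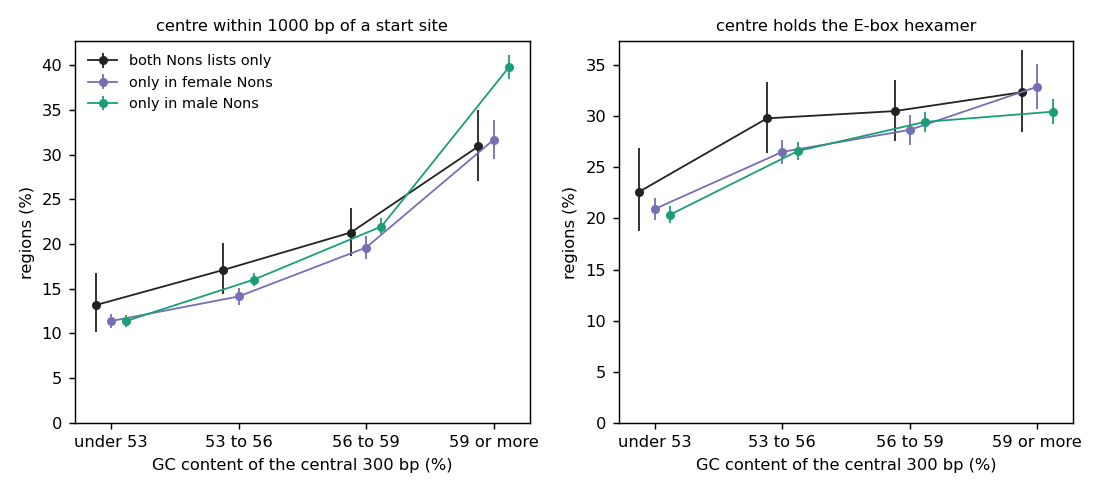
Share of regions (%) with the centre within 1000 bp of a start site (left) and with the hexamer CAGCTG in the central 300 bp (right), by GC content of the central 300 bp, for regions in both Nons lists only, only in female Nons and only in male Nons. Points are shares and lines 95% Clopper-Pearson intervals. At 59% GC or more 30.9% of the regions in both Nons lists only are at a start site, against 39.8% of those only in male Nons.

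The regions were spread unevenly over the chromosomes. Chromosome 4 held 263, chromosome 11 held 257 and chromosome 5 held 242. Per 10 Mb, the number was between 4.37 on chromosome 3 and 21.1 on chromosome 11. As a share of all low-input regions on the same chromosome it was between 2.49% on chromosome 18 and 4.31% on chromosome 15. Another member lay within 10 kb of 428 regions (16.4%), and the median distance to the nearest was 67351 bp. In the distal 5 Mb of the autosomes lay 246 (9.42%), against 7.12% of all low-input regions.

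Single promoters showed what the counts amount to. By the smaller of their Nons folds over input, the highest were at Esyt3, which tethers the endoplasmic reticulum to the plasma membrane, Rbfox3, a neuronal splicing factor, and Ap2a1, a subunit of the clathrin adaptor AP-2. The Esyt3 region (chr9:99324901-99325350) covered its start site and held 2 reads in female Smarcc1 knockdown, against 9 in female Nons, and 3 reads in male Smarcc1 knockdown, against 12 in male Nons, with 0 input reads. The Rbfox3 region (chr11:118508251-118509000) lay 898 bp from a start site inside the gene, which spans chr11:118489762-118911597. It held 0 against 6 reads in female cells and 7 against 18 in male cells, knockdown before Nons, with 0 input reads. The Ap2a1 region (chr7:44902201-44902500) held 0 against 6 reads in female and 5 against 10 in male cells. In all 3, both knockdown libraries were below their Nons library, which the rule and the ranking favoured. The male gap after scaling was the narrowest at Ap2a1.

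At Por, the electron donor of cytochrome P450 enzymes, the region (chr5:135726451-135727650) held 0 reads in female Smarcc1 knockdown against 13 in female Nons and 6 in male Smarcc1 knockdown against 18 in male Nons, with 5 input reads. Nlgn2, an adhesion protein of inhibitory synapses, had 0 against 8 reads in female cells and 3 against 8 in male cells. Ube3b, a ubiquitin ligase, had 2 against 13 reads in female cells and 5 against 8 in male cells, so its male libraries were nearly level after scaling. The Ube3b region also lay at a start site inside the gene. Lad1, a basement membrane protein, had 0 against 11 reads in female cells and 4 against 15 in male cells, and Inppl1, a lipid phosphatase of insulin signalling, had 1 against 10 and 3 against 14. The other named promoters were those of Dffb, the nuclease of apoptosis, Accs, Psmd3, a subunit of the proteasome lid, and Cdh4, a cadherin, with 0 to 2 reads in female Smarcc1 knockdown and 6 to 8 in female Nons.

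**Figure D4:**
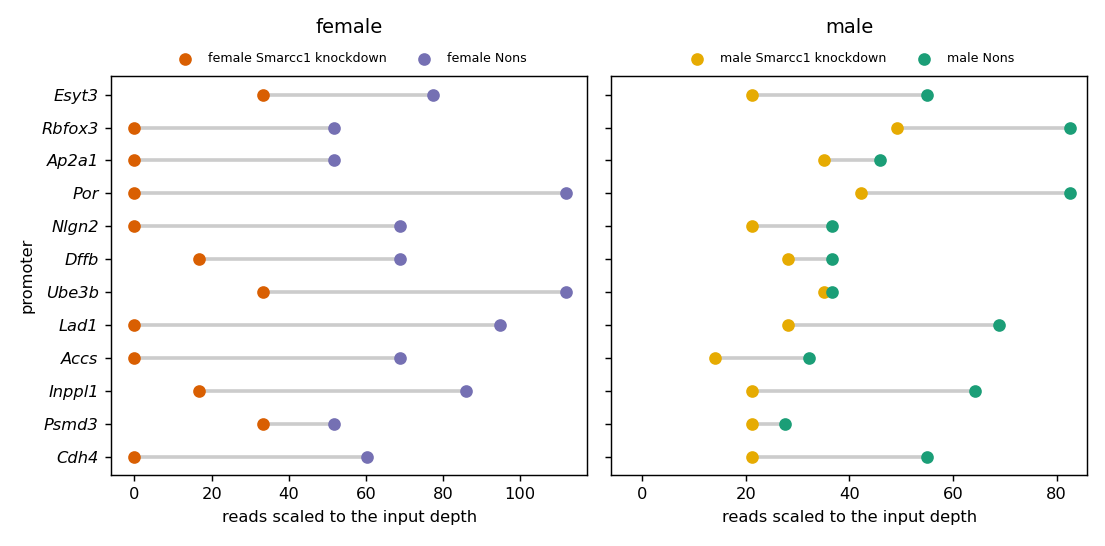
Reads scaled to the input depth at the 12 promoter regions with the highest Nons fold over input, in female (left) and male (right) cells, 1 library per point. Grey lines join Smarcc1 knockdown and Nons of a region. Smarcc1 knockdown lies below Nons at all 12 promoters in both sexes, and most narrowly for Ube3b in male cells. The rule and the ranking by Nons fold favoured this direction, so it is no test.

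Within genes, an intron of Ptbp1, a splicing repressor of neuronal exons, held a region (chr10:79857301-79857750) with 2 reads in female Smarcc1 knockdown against 6 in female Nons and 6 in male Smarcc1 knockdown against 12 in male Nons. An intron of Vdr, the vitamin D receptor (chr15:97872151-97872600), held 1 against 6 reads in female cells and 1 against 14 in male cells. Introns of the cation channel genes Trpc7 and Trpv4 held 2 reads each in female Smarcc1 knockdown against 6 and 7 in female Nons, and 3 each in male Smarcc1 knockdown against 12 and 11 in male Nons. Coding exons of Dnah17, a dynein of cilia, and Sv2c, a synaptic vesicle protein, held 1 and 0 reads in male Smarcc1 knockdown against 10 each in male Nons. All of these had 0 input reads. Outside genes, the region nearest to Asb1 (chr1:91564501-91564950), 23421 bp from a coding start, held 1 against 6 reads in female and 0 against 11 in male cells, and the region nearest to Adra2c, an adrenergic receptor, held 1 against 10 and 4 against 11.

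Reads were absent from both knockdown libraries in both windows at 54 regions (2.07%). Those with the most Nons reads included an intron of Slc35e1, with 7 reads in female Nons and 19 in male Nons, and an intron of Anxa6, a membrane-binding annexin, with 10 and 16. An intron of Rbpms, an RNA-binding protein, had 8 and 11, and a coding exon of Gh, growth hormone, 7 and 11. At the other end, the most knockdown reads were found in an intron of Cabp7, a calcium-binding protein, with 5 in female Smarcc1 knockdown against 15 in female Nons and 12 in male Smarcc1 knockdown against 29 in male Nons. By scaled reads summed over both sexes, Cabp7 was followed by Pgs1, with 6 against 18 and 9 against 10, and Kcnj4, a potassium channel, with 6 against 16 and 8 against 22. At Pgs1 the scaled reads of male Smarcc1 knockdown were above those of male Nons. Lhx4, Hoxd11 and Hoxc11, all homeodomain genes, also stood here and had 16, 12 and 12 input reads, more than the median of 4. The widest region, 1950 bp in an intron of Gse1, held 3 against 23 reads in female cells and 2 against 9 in male cells, whereas the 1500 bp region at the Hdgfl2 promoter held 0 against 6 in female cells and 6 against 42 in male cells.

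A member lay at the promoter of 487 of 20780 protein-coding genes (2.34%), and in the body or at the promoter of 1618 (7.79%). Any low-input region lay at 6771 promoters (32.6%), of which members were at 7.19%. Hox genes, which set position along the body axis, had a member at 5 of 39 promoters and any region at 27, which is 18.5% of those. They were Hoxa11 with 2 against 10 reads in female cells and 8 against 19 in male cells, Hoxc9 with 2 against 9 and 9 against 21, Hoxd11 with 6 against 11 and 8 against 19, Hoxc11 with 4 against 10 and 11 against 14, and Hoxb3. Once scaled, Hoxd11 was higher in female Smarcc1 knockdown than in female Nons and Hoxc11 was higher in male Smarcc1 knockdown than in male Nons, while Hoxa11 and Hoxc9 were lower in both sexes. The 4 with values held more knockdown reads in both sexes than the medians of 1 and 3 over all members. Hoxd11 and Hoxc11 were among the regions picked for the most knockdown reads, so nothing is read from this. The 4 also held 5 to 12 input reads, above the median of 4 over all members.

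Promoters of germ layer regulators often held a region of any kind, at 12 of 17 endoderm, 15 of 23 mesoderm and 14 of 23 neural genes, and members were at 25%, 20% and 21.4% of these, beside 7.19% over all genes. These shares rest on 3 genes each and were not tested. Of 17 endoderm genes, 3 had a member at the promoter: Foxa2, a pioneer factor of endoderm, with 0 against 6 reads in female and 5 against 12 in male cells, Pdgfra, a growth factor receptor of primitive endoderm, with 0 against 10 and 4 against 11, and Lefty2, a Nodal antagonist, with 0 against 8 and 5 against 8. Of 23 mesoderm genes, 3 had one: T (Brachyury), with 0 against 9 and 5 against 8, Tbx4, a limb factor, with 1 against 6 and 3 against 13, and Meox2, of somites, with 0 against 12 and 4 against 5. Of 23 neural genes, 3 had one: Neurog3, with 0 against 12 and 2 against 8, Six3, of the forebrain, with 2 against 14 and 6 against 11, and Hes3, with 4 against 11 and 4 against 14. Female Smarcc1 knockdown had 0 reads at 6 of these 9 promoters, and male Smarcc1 knockdown had 2 to 6 reads at each. Over all members, 42.7% had 0 reads in female and 8.12% in male Smarcc1 knockdown. The female library was shallower, at 5.99% of the input depth against 14.2%, so nothing is read from this contrast. Scaled, male Smarcc1 knockdown lay above male Nons at Meox2 and was nearly level with it at T and Lefty2. Other homeobox genes had a member at 5 of 126 promoters, 6.02% of the 83 with any region.

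Among signalling and transcription lists, potassium and calcium channel genes had a member at 10 of 116 promoters and nuclear receptors at 4 of 45. Corepressors had 3 of 37, TGF-beta and BMP genes 4 of 78 and axon guidance genes 4 of 68. Fgf and hedgehog genes had 3 of 47 and imprinted genes 3 of 37. Over all protein-coding genes the share was 2.34%. Any low-input region lay at 62, 27, 19, 37, 40, 20 and 21 of these promoters, in the same order. Members were at 10% (axon guidance) to 16.1% (channels) of those, beside 7.19% over all genes. These shares rest on 3 to 10 genes each and were not tested. Kcnq1, a cardiac potassium channel, held 0 against 10 reads in female cells and 3 against 17 in male cells, and Nr2f2, an orphan nuclear receptor, 1 against 8 and 6 against 16. The corepressors were the deacetylases Hdac3, Hdac4 and Hdac11, with 1 or 2 reads in female Smarcc1 knockdown against 6 to 8 in female Nons. The Hdac3 region covered a start site of the neighbouring gene Rell2, lay at the promoters of both genes and held 8 input reads. No member lay at a promoter of 38 pluripotency and formative genes, 31 BAF genes, 18 Sox genes, 18 DNA methylation genes or 65 Wnt genes, although any region lay at 14, 14, 13, 11 and 32 of them. Beside the background of 7.19% of promoters with any region, lists of this size cannot show an absence.

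Some genes held several members. There were 87 protein-coding genes with 3 or more and 18 with 5 or more, including a gene model of 4435 kb, Gm20388, that spans Gse1 and held 50 of 1070 regions. The counts below stand beside 3.66% of all regions. Gse1 held 9 of its 149 low-input regions, and Xxylt1, a xylosyltransferase that acts on Notch, 6 of 22. Arhgef10l held 6 of 42, Cux2, a homeobox factor of upper cortical layers, 6 of 59, Rbfox3 6 of 105, Sdk2, a synaptic adhesion protein, 6 of 55, and Sept9, a septin, 6 of 48. Summed over its 9 regions, Gse1 had 12 reads in female Smarcc1 knockdown against 100 in female Nons and 34 in male Smarcc1 knockdown against 102 in male Nons. Scaled, the ratios for Gse1 were 0.233 in female and 0.511 in male cells. Ints1, a subunit of Integrator, had 5 of its 16 regions here, within a gene of 24.4 kb.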

How the data were processed

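Members, gene lists and motifs were chosen with earlier results of these data known. Per the study's methods, chromatin was prepared with the ChIP-IT High Sensitivity kit and an antibody to Smarca4, and the single-end reads went through trim_galore and then bowtie2 onto mm10 (a reporting form of the study has tophat there, so the aligner is uncertain). Duplicates were removed and peaks were called per library against the input in Seqmonk. No versions stand beside bcl2fastq, Bowtie2 and MACS2 in the submitters' processing notes. The deposited ChIP values are a signal per peak, scaled by the authors to the input depth, and the deposited input values are counts of reads. Dividing by what 1 read was worth gave whole reads within 0.01 for 100% of values. That worth was 16.7 (female Smarcc1 knockdown), 8.60 (female Nons), 7.03 (male Smarcc1 knockdown) and 4.59 (male Nons). Library totals were not used here.

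Groups came from the sample titles. Genes, start sites and sequence came from GENCODE vM21 and RefSeq GRCm38, the build of mm10. Shares have Clopper-Pearson intervals, differences of shares Newcombe intervals and ratios of read sums exact conditional intervals, all at 95% and for counting error only. Fold over input used a pseudocount of 1 input read, since the lists hold no caller fold. Recovered reads were fitted with edgeR 4.0.16 (glmQLFit and glmQLFTest) and DESeq2 1.42.0 in R 4.3.3, and other steps used Python with pandas and scipy. The edgeR fit was tried on simulated data with a lower dispersion than the fitted one, so that trial does not show its power here.

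Named regions were the 12 at coding promoters, 8 within genes and 6 outside genes with the highest value of the smaller Nons fold, the 6 without knockdown reads that had the most Nons reads, the 6 with the most knockdown reads, the 4 widest, up to 3 promoters per gene list, genes with 3 or more members, and up to 3 on each side of the input limit. Unnamed and overlong gene models, and a few regions of these sets, were not printed. Hoxb3 and the counts of other genes come from the lists. Alternatives were other overlaps, input limits, promoter widths, windows, pseudocounts, normalizations and tools.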

Additional observations from a re-analysis of the deposited data

How the results depend on the processing

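With the 50% of peaks of each list that had the highest fold over input, 1000 regions were called in both Nons lists only, and 19.4% of them were at promoters. The demand that Nons reads reach the smallest knockdown peak in both sexes left 292 regions, with ratios of knockdown to Nons of 0.262 in female and 0.446 in male cells. In the window of the other sex the ratios were 0.290 and 0.538. The promoter share was 16.9% within 500 bp of a start site, 36.8% within 2500 bp, 19.03% for coding start sites alone and 20.8% for the central 300 bp, and 804 coding genes had a member within 2500 bp. With a pseudocount of 5 input reads the median fold over input was 7.74 in female Nons and 5.24 in male Nons, against 15.5 and 10.1 with 1. The lower counts of regions, the larger or smaller promoter windows and the pseudocount shift their values by construction, and the cause of the other shifts was not tested. The numbers under other overlaps and input limits stayed within 1.5 times of 2612, and the additive model called 0 regions in every setting run, with 242 regions for Smarcc1 knockdown over Nons and 284 for female over male at an unadjusted p under 0.05 with TMM, and 189 and 157 with at least 20 reads. No paired analysis was possible because each group held 1 library, apart from the additive model, which sets the hairpins against each other within each sex, and no library could be left out. Depth allowed a call in both knockdown libraries for 11.2% of the regions even at Nons levels, so absence from the knockdown lists does not show absence of binding.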

Other observations

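Within gene bodies and promoters together, collagen, laminin and Adamts genes, which build and remodel the extracellular matrix, had a member in 20 of 77 (25.97%), axon guidance genes in 16 of 68 (23.5%) and potassium and calcium channel genes in 26 of 116 (22.4%), beside 7.79% of all protein-coding genes, without matching for gene length. At promoters the matrix genes had 2 of 77, namely Col1a1, a fibrillar collagen chain, with 0 reads in female Smarcc1 knockdown against 7 in female Nons and 5 in male Smarcc1 knockdown against 12 in male Nons, and Lamc3, a laminin chain, with 2 against 7 and 5 against 7, where the scaled male values were higher in Smarcc1 knockdown. Cadherin genes had 2 of 103 promoters, Notch genes 1 of 38, Fox genes 1 of 41, Polycomb genes 1 of 41 and other remodeller genes 2 of 35, the last being Chd3 and Ruvbl2. The promoter share over all protein-coding genes was 2.34%. No member was at a promoter of 76 ribosomal protein, 80 histone, 358 Zfp or 1086 olfactory receptor genes, of which 19, 7, 74 and 22 had any low-input region. Divergent promoters of paired coding genes held 12 of the regions. The imprinted genes were Dlk1 with 1 against 9 reads in female cells and 3 against 13 in male cells, Kcnq1, and Tssc4 with 0 against 6 and 3 against 24.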
